A study of Mus musculus with 31 samples.

Results

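The transcripts of 9 genes of the amino acid stress response were followed in the gastrocnemius, a calf muscle, of mice that lacked the ubiquitin ligase MuRF1 and of wild-type mice. The genes were chosen by name, with earlier results of these data known. They are Atf4 and 8 genes that ATF4 is known to control or to work beside, which are Chac1, Mthfd2, Asns, Psat1, Phgdh, Trib3, Ddit3 and Atf5. They are 9 of the 39017 gene identifiers counted, and all 9 were among the 14024 that passed a filter on low counts. RNA was sequenced from 31 libraries, of which 30 had a group. The groups were female knockout high fat (n = 3), female wild type high fat (n = 4), female knockout chow (n = 4), female wild type chow (n = 4), male knockout high fat (n = 3), male wild type high fat (n = 4), male knockout chow (n = 4) and male wild type chow (n = 4). The knockout (KO) is of MuRF1, encoded by Trim63. The sources used here do not give the strain of the mice or how the allele was made. High-fat mice ate a diet of 45% fat with lard as its source from 8 weeks of age, and all muscles were taken at 30 weeks. The labels give each library an animal number of its own.

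Cells that run short of an amino acid, or that accumulate misfolded protein, phosphorylate the initiation factor eIF2. General protein synthesis then slows while the Atf4 messenger is translated more efficiently, so ATF4 is controlled largely at the level of translation and its protein can change without its messenger. ATF4 protein pairs with C/EBP proteins on DNA and raises genes for amino acid synthesis and transport, tRNA charging, glutathione turnover and mitochondrial folate metabolism. In skeletal muscle this response is well known from mitochondrial disease, fasting and disuse. The data here are messenger levels only, and ATF4 protein was not measured.

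Of the members, Chac1, Asns and Trib3 hold the composite C/EBP-ATF letters TGATGNAA, read on either strand, in a window from 250 bases before to 50 bases after the RefSeq start (GRCm38.p6). All 9 members had such a window, 3 of 9 held the motif, and over all genes 4.511% did (1219 of 27025). Those 3 promoters and that of Mthfd2, the member whose messenger moved in the most genotype comparisons and whose window has no match, are shown from 250 bases before to 30 bases after the start, 5′ to 3′ on the strand of the gene, with the matching 8 letters in capitals. They lie at chr2:119350992-119351271 (plus strand) for Chac1, chr6:7693180-7693459 (minus strand) for Asns, chr2:152344031-152344310 (minus strand) for Trib3 and chr6:83317575-83317854 (minus strand) for Mthfd2.
Chac1: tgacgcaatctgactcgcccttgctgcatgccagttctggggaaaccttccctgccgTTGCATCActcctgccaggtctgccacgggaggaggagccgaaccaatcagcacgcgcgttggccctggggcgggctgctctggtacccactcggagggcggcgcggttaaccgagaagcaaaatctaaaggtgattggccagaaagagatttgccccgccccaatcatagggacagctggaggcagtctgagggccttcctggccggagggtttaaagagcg
Asns: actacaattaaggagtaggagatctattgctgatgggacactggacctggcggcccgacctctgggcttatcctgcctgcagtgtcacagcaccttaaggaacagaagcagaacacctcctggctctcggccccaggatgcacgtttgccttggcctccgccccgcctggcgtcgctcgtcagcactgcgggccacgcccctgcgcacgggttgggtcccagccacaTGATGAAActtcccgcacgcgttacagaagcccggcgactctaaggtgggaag
Trib3: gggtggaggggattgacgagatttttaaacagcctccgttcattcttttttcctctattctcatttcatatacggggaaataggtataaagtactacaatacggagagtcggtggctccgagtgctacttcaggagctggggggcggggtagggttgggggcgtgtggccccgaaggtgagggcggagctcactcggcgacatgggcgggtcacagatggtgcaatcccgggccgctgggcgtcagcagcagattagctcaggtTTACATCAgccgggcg
Mthfd2: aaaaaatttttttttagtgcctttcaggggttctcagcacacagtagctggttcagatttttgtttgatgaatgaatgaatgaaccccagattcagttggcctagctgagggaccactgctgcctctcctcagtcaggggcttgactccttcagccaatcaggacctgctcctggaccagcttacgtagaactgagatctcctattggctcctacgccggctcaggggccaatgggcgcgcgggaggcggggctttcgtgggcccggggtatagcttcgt
The first letter of the match lay at -193 for Chac1, at -23 for Asns and at 15 for Trib3, counted from the start. The Chac1 and Trib3 matches are the motif on the opposite strand. A match describes the letters in this window and says nothing of binding. The windows of Mthfd2 and Psat1 lie inside their gene spans in GENCODE M21, which reach 83325908 and 15947337. Any start nearer those ends was not searched.

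The groups were checked on 3 genes. Trim63 lay between 0.487 and 7.75 CPM (counts over a common library size, here scaled by the TMM factors of edgeR) in 14 KO libraries and between 107 and 271 CPM in 16 wild-type (WT) libraries. Ddx3y, on the Y chromosome, lay between 0 and 0.697 CPM in 15 female libraries and between 34.7 and 55.7 CPM in 15 male libraries, and Xist ran from 71.5 to 256 CPM in the female and from 0 to 1.38 CPM in the male libraries. Total counts ran from 9342028 to 14919379 per library. The 12 muscle fibre markers summed to at least 145451 CPM in every library, and none was at 0 throughout a group. In these bulk samples, fewer cells of a type and less RNA per cell cannot be told apart. In 3 female chow libraries (KO replicates 1 and 3 and WT replicate 3) the skin gene Krt10 was highest, and in 3 WT libraries (male chow 3, female chow 1, female high fat 4) Trim63 lay between 50 and 150 CPM. Results that changed without them are given with both values. Grouping all libraries by their own titles was an alternative, under which Trim63 was above 50 CPM in 3 of 15 libraries titled KO and below 10 CPM in 2 of 16 titled WT.

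The 9 genes span a wide range of abundance. Per kilobase of exon, mean CPM over the 30 libraries was 70.9 for Atf4, 31.2 for Chac1, 25.8 for Atf5, 8.58 for Ddit3, 1.97 for Mthfd2, 1.46 for Phgdh, 0.630 for Psat1, 0.627 for Trib3 and 0.611 for Asns. The 3 lowest do not differ beyond their spread between libraries, and Chac1, which varied from 7.33 to 229 CPM, overlapped Atf5 and Ddit3 in its range. Counts behind the low genes were small, with a median of 19.5 for Asns (2 to 62), 17 for Trib3 (7 to 25), 33.5 for Psat1 and 42.5 for Phgdh, against 2066 for Atf4. The standard error did not follow the counts alone. In the genotype comparison of male chow it was 0.55 for Chac1, 0.40 for Phgdh, 0.37 for Asns and 0.29 for Trib3 on the log2 scale.

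**Figure D1:**
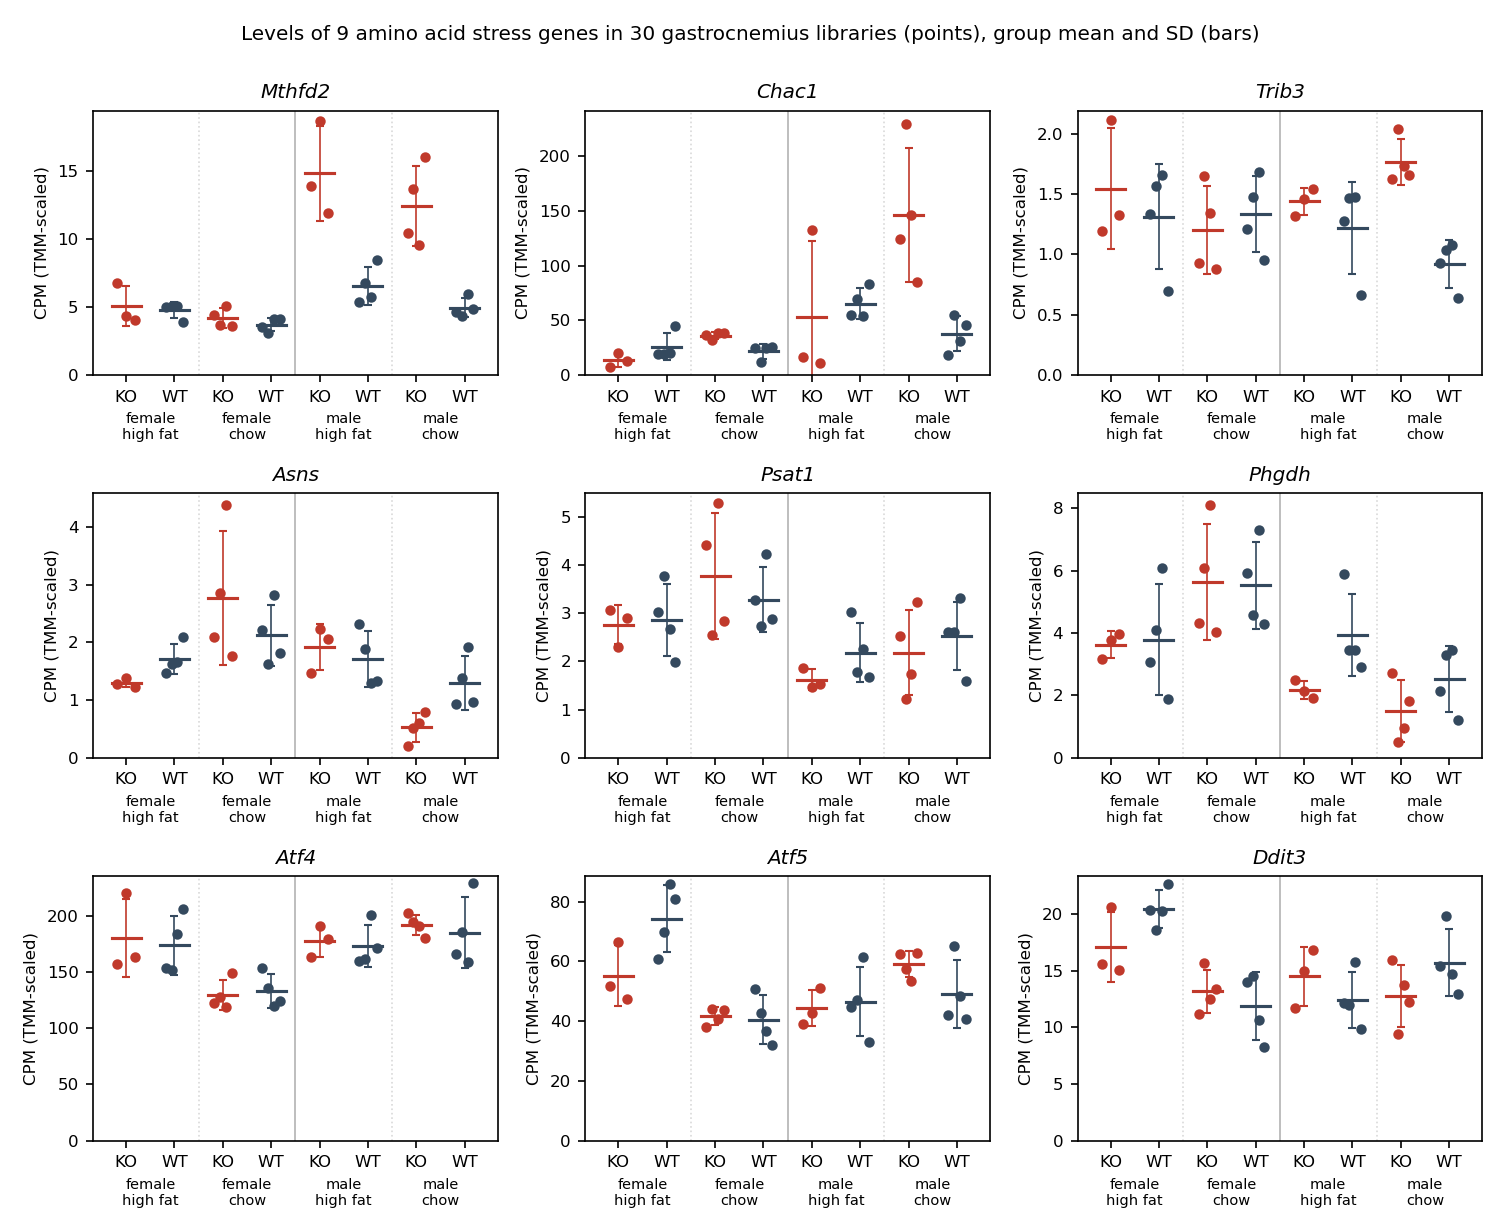
Level of each gene (CPM scaled by TMM, y axis from 0) in each of 30 libraries, with KO in red left of WT in dark blue within each sex and diet. Points are libraries, the long line is the group mean and the bar is 1 SD (n = 3 or 4; the lower bar of Chac1 in male KO high fat runs below the axis). Mthfd2 is high in the 7 male KO libraries, at 9.54 CPM or more, Chac1 is high in the 4 male KO chow libraries and in 1 of 3 male KO high fat libraries, and Atf5 and Ddit3 are highest on average in female WT high fat.

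The question put first was what the loss of MuRF1 does to these messengers in each sex and on each diet. Mthfd2 was the member that differed between genotypes in males on both diets, and in females it did not pass the test on either. On chow, male KO muscle also had more Chac1 and Trib3 and less Asns than male WT muscle, while the regulators Atf4, Atf5 and Ddit3 did not pass the test. So 4 of 9 members were called in males on chow, 3 higher and 1 lower, where 6.95% of all genes were called, 1.63% higher and 5.31% lower. A gene was called when its p from the quasi-likelihood test of edgeR, adjusted by Benjamini and Hochberg over all 14024 genes, was below 0.05.

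Mthfd2 (ENSMUSG00000005667, chromosome 6, 83305691 to 83325908, minus strand, mm10) encodes a mitochondrial enzyme of folate metabolism that is usually low in adult tissue. It had 10.4, 13.7, 9.54 and 16.0 CPM in male KO chow, against 4.62, 4.34, 5.93 and 4.88 CPM in male WT chow. On the high-fat diet it had 13.9, 18.6 and 11.9 CPM in male KO muscle, against 5.33, 6.72, 5.73 and 8.42 CPM in male WT muscle. Every male KO library lay above every male WT library, and the groups did not overlap on either diet. The log2 fold change, KO over WT, was 1.33 ± 0.19 (SE) on chow (edgeR adjusted p = 0.000257) and 1.18 ± 0.19 on high fat (edgeR adjusted p = 0.00129). By p it ranked 3 of all genes in the chow comparison and 10 in the high-fat comparison, where 0.264% of genes were called and Mthfd2 was 1 of 9 members called. Leaving out each library in turn kept both calls, in 8 of 8 and 7 of 7 omissions. Grouping by own titles kept the call on chow (1.36, edgeR adjusted p = 0.0154) and lost that on high fat (1.15, 0.323).

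In females, Mthfd2 had 4.42, 3.68, 5.07 and 3.58 CPM in KO chow, against 3.49, 3.11, 4.10 and 4.12 CPM in WT chow. On high fat the values were 6.73, 4.33 and 4.06 CPM in female KO muscle, against 4.98, 5.09, 5.08 and 3.87 CPM in female WT muscle. These groups overlapped on both diets, with log2 fold changes of 0.18 ± 0.21 and 0.08 ± 0.22. The difference between the sexes was tested directly. Averaged over diet, the genotype difference of Mthfd2 was lower in females than in males by a log2 of -1.12 ± 0.20 (edgeR adjusted p = 0.0191), the 1 member called, where 0.0285% of genes (4 of 14024) were called and 0.0143% were lower. The call was lost without male KO high fat replicate 2 or female KO high fat replicate 3 (edgeR adjusted p up to 0.058), with the difference between -1.27 and -1.03 over all omissions, and by own titles (-1.44, 0.203). For single diets, in comparisons added after the data had been seen, the difference was -1.15 ± 0.28 on chow (edgeR adjusted p = 0.0855), where 0.0428% of genes were called, and -1.10 ± 0.29 on high fat (0.572), where 0% were. Averaged over sex and diet, Mthfd2 rose in KO muscle by 0.69 ± 0.10 (edgeR adjusted p = 4.96e-05) and was 1 of 9 members called, where 4.39% of genes were called and 1.55% were higher. By own titles this was 0.54 (edgeR adjusted p = 0.0813), which is not a call.

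Chac1 (ENSMUSG00000027313, chromosome 2, 119351229 to 119354381, plus strand) encodes an enzyme that degrades glutathione. Its level was 124, 229, 147 and 85.3 CPM in male KO chow, against 18.7, 55.2, 31.3 and 46.1 CPM in male WT chow. The lowest KO library lay above the highest WT library. The log2 fold change was 1.95 ± 0.55 (edgeR adjusted p = 0.0337). On high fat, male KO muscle had 16.4, 133 and 10.5 CPM, against 54.5, 69.1, 53.8 and 83.3 CPM in male WT muscle. There 1 KO library was above all WT libraries and the other 2 were below all of them, and the log2 fold change of -0.29 ± 0.58 did not pass the test. In female chow, Chac1 had 36.1, 31.8, 38.1 and 38.1 CPM in KO muscle, against 24.6, 11.8, 24.3 and 26.0 CPM in WT muscle, a difference of 0.74 ± 0.56 that did not pass the test although the libraries did not overlap. In female high fat it had 7.33, 20.3 and 12.7 CPM in KO muscle, against 18.9, 19.3, 20.3 and 44.4 CPM in WT muscle.

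On high fat the female groups overlapped, with a log2 fold change of -0.93 ± 0.64. The change of the genotype difference of Chac1 with diet was tested as an interaction. Averaged over sex, it was -1.95 ± 0.58 (high fat minus chow; edgeR adjusted p = 0.283), with an unadjusted p of 0.0029. No member was called in that comparison by edgeR or by DESeq2, 2 of 9 had an unadjusted p under 0.05 and 0.107% of all genes were called. The result rests on 1 library. Without male KO high fat replicate 2, the one at 133 CPM, Chac1 was called for this interaction at -2.95 (edgeR adjusted p = 0.00189) and for diet in KO males at -3.46 (0.00462), against -1.45 ± 0.59 (0.127) with it.

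Asns (ENSMUSG00000029752, chromosome 6, 7675169 to 7693254, minus strand) encodes asparagine synthetase, a classic target of ATF4, and moved the other way. It had 0.203, 0.510, 0.607 and 0.791 CPM in male KO chow, which are 2, 5, 7 and 10 counts, against 0.925, 1.38, 1.93 and 0.960 CPM in male WT chow. All KO libraries were below all WT libraries. Asns fell by 1.24 ± 0.37 on the log2 scale (edgeR adjusted p = 0.0376). Trib3 (ENSMUSG00000032715, chromosome 2, 152337422 to 152344032, minus strand), a pseudokinase that ATF4 and CHOP induce and that feeds back on ATF4, had 1.62, 2.04, 1.74 and 1.66 CPM in male KO chow, against 0.925, 1.03, 1.08 and 0.640 CPM in male WT chow. Here too the groups were apart, with a log2 fold change of 0.92 ± 0.29 (edgeR adjusted p = 0.0480). In male high fat the groups overlapped for both genes, with log2 fold changes of 0.17 for Asns and 0.25 for Trib3 and no call. In female high fat, Asns ran from 1.23 to 1.38 CPM in KO muscle and from 1.47 to 2.085 CPM in WT muscle. Those groups did not overlap, but the log2 fold change of -0.39 did not pass the test (edgeR adjusted p = 0.803).

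The calls of Chac1, Asns and Trib3 in male chow lie close to the threshold. That of Chac1 was lost without KO replicate 1, 2 or 3 or WT replicate 1 or 3 (log2 fold change 1.65 to 2.19 and edgeR adjusted p up to 0.143 over 8 omissions). That of Asns was lost without KO replicate 1, 2 or 3 or WT replicate 2 or 3 (-1.51 to -0.98, up to 0.172), and that of Trib3 in 7 of 8 omissions, all but KO replicate 4 (0.81 to 1.01, up to 0.163). Without the libraries of Trim63 between 50 and 150 CPM, which removes WT replicate 3 here, the edgeR adjusted p was 0.104 for Chac1, 0.178 for Asns and 0.0652 for Trib3. Without the libraries highest in Krt10 it was 0.0538 for Chac1 and 0.0548 for Trib3, and DESeq2 gave 0.0533 for Trib3. By own titles it was 0.0497 for Chac1, 0.065 for Asns and 0.0562 for Trib3. The direction was the same under all of these.

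**Figure D2:**
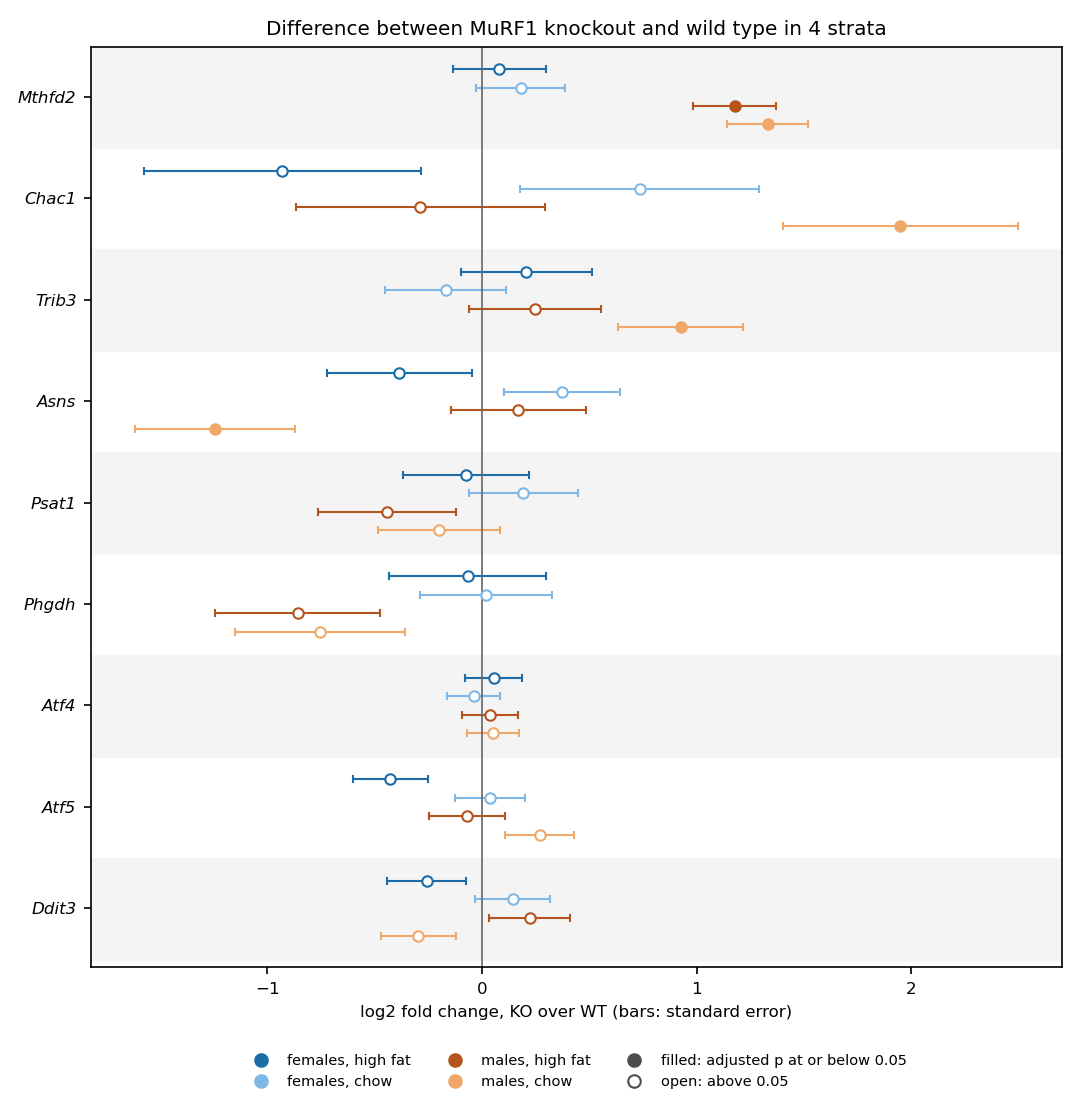
Log2 fold change of each gene, KO over WT (x axis), with its standard error as a bar, in females on high fat, females on chow, males on high fat and males on chow from top to bottom within a gene. Filled points passed an adjusted p of 0.05 in edgeR. Mthfd2 is filled in both male strata, at 1.18 on high fat and 1.33 on chow, and Chac1, Trib3 and Asns are filled in males on chow.

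The remaining members gave no genotype call. In male chow, Atf4 had 202, 195, 191 and 180 CPM in KO muscle, against 166, 186, 159 and 229 CPM in WT muscle, a log2 fold change of 0.05 ± 0.12 with overlapping groups. Over the 4 strata the log2 fold change of Atf4 between genotypes stayed between -0.04 and 0.05. Phgdh, which makes the entry step from glycolysis into serine synthesis, had 2.48, 2.16 and 1.90 CPM in male KO high fat, against 5.89, 3.47, 3.47 and 2.92 CPM in male WT high fat. These groups did not overlap, but the log2 fold change of -0.86 ± 0.38 did not pass the test (edgeR adjusted p = 0.435). In females no member was called by edgeR on either diet, where 0.0713% of genes were called on high fat and 0.0927% on chow. DESeq2 called none either, and at an unadjusted p under 0.05 there was 1 member on high fat, Atf5 (-0.43 ± 0.17), and 0 on chow.

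Other genes of the response were read from lists chosen by function. Between KO and WT in male chow, 1.63% of all genes were called higher and 5.31% lower. In male chow, 0 of 20 cytosolic aminoacyl-tRNA synthetases, which charge tRNAs, were called between KO and WT (7 at an unadjusted p under 0.05), with a median log2 fold change of 0.14 against -0.02 over all genes. None of 12 amino acid transporters tested and none of 12 genes for eIF2 kinases, phosphatase subunits and eIF2B was called there either. Among 17 other ATF4-responsive genes tested, Ddit4, an inhibitor of mTORC1, rose by 2.29 ± 0.53 (edgeR adjusted p = 0.0131), with 72.9 ± 34.4 CPM in KO muscle and 15.0 ± 14.1 CPM in WT muscle (SD, n = 4 each), and Bbc3, a pro-apoptotic gene, fell by 1.25 ± 0.39 (0.0451). Of 11 serine, glycine and one-carbon enzymes tested, 0 were higher and 2 lower, Amt (-0.68) of the glycine cleavage system and Tyms (-1.35), which makes thymidylate. In male high fat the transporter gene Slc38a2, a known ATF4 target that imports neutral amino acids, was higher in KO muscle by 0.80 ± 0.16 (edgeR adjusted p = 0.0125), at 192 ± 17.9 CPM (n = 3) against 111 ± 33.1 CPM in WT muscle (n = 4). It was the single gene called among the 12 transporters tested there, where 0.264% of all genes were called.

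Other cell types and hormone-responsive genes moved in the same male chow comparison, where 1.63% of all genes were higher and 5.31% lower. Of 14 glucocorticoid-responsive genes, 8 were higher in KO muscle and 0 lower, among them Glul, which makes glutamine (1.49), Tsc22d3 (0.84) and Sgk1 (0.71). Fibroblast markers were lower in 10 of 10, macrophage markers in 8 of 10 and endothelial markers in 5 of 8. Their summed level was 526 to 1478 CPM in KO and 1464 to 2174 CPM in WT for fibroblasts, and 46.9 to 125 CPM in KO and 112 to 190 CPM in WT for macrophages, with no defining marker at 0 throughout a group. Their part in the values of the members was not tested.

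Diet was compared next, high fat over chow within each sex and genotype. In females, Atf5 and Ddit3 rose on high fat in WT muscle and Atf4 rose in both genotypes, while Asns fell in KO muscle. In males, Asns rose in KO muscle. In WT females 3 of 9 members were called, all higher, where 25.4% of genes were called and 12.9% were higher, so the share among the members was near the background. In KO females 1 was higher and 1 lower, where 19.2% were called, 10.4% higher and 8.79% lower. In males 1 member was called in KO muscle, where 5.83% of genes were called and 4.01% were higher, and 0 in WT muscle, where 0.349% were called (edgeR; 0 by DESeq2; 1 at an unadjusted p under 0.05, Mthfd2 at 0.41 ± 0.19).

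Atf5 (ENSMUSG00000038539, chromosome 7, 44812256 to 44816658, minus strand), a bZIP factor tied to the mitochondrial stress response, had 60.8, 69.8, 85.8 and 80.9 CPM in female WT high fat, against 50.8, 42.9, 36.5 and 31.9 CPM in female WT chow. Ddit3 (ENSMUSG00000025408, chromosome 10, 127290774 to 127296288, plus strand), which encodes CHOP, had 20.3, 18.6, 20.3 and 22.6 CPM in female WT high fat, against 14.0, 14.6, 10.7 and 8.23 CPM in female WT chow. For both genes the 4 high-fat libraries lay above the 4 chow libraries. Atf5 rose by 0.87 ± 0.16 (edgeR adjusted p = 0.000804) and Ddit3 by 0.77 ± 0.17 (0.00264), and both calls were kept in 8 of 8 omissions. By own titles both were lost, with Atf5 at 0.52 (edgeR adjusted p = 0.163) and Ddit3 at 0.37 (0.280). In KO females, Atf5 had 51.7, 66.7 and 47.3 CPM on high fat, against 37.9, 44.1, 40.8 and 43.9 CPM on chow, which is 0.41 ± 0.17 (edgeR adjusted p = 0.0936), and Ddit3 differed by 0.37 ± 0.19 (0.146). The Ddit3 row overlaps Mars, a tRNA synthetase gene on the opposite strand, over 68 bases, and that of Atf5 overlaps Il4i1 over 272 bases. Since no source used here gives the strand setting of the counting, reads from these stretches are uncertain.

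Atf4 (ENSMUSG00000042406, chromosome 15, 80255184 to 80257541, plus strand) had 157, 220 and 163 CPM in female KO high fat, against 123, 128, 119 and 149 CPM in female KO chow, with no overlap. In WT females it had 153, 152, 183 and 206 CPM on high fat, against 154, 135, 119 and 124 CPM on chow, with 2 high-fat libraries just below the highest chow library. The log2 fold change was 0.48 ± 0.13 in KO females (edgeR adjusted p = 0.0146) and 0.38 ± 0.12 in WT females (0.0226). With an offset for GC content these became 0.30 (0.103) and 0.16 (0.404), and without the libraries highest in Krt10 0.38 (0.177) and 0.34 (0.0880). In KO females the call was also lost without KO high fat replicate 2 (0.31, edgeR adjusted p = 0.216). In WT females it was lost without chow replicate 3 or 4 or high fat replicate 3 or 4 (0.30 to 0.47 over the omissions, adjusted p up to 0.0899), in a fit of only these groups (0.0558) among libraries whose own title has the same group (0.194) and by own titles (0.12, 0.619).

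Asns changed with diet in KO muscle of both sexes, in opposite directions. In KO males it had 1.47, 2.23 and 2.05 CPM on high fat, against 0.203, 0.510, 0.607 and 0.791 CPM on chow. In KO females it had 1.28, 1.38 and 1.23 CPM on high fat, against 2.09, 2.85, 4.37 and 1.75 CPM on chow. In each case the groups did not overlap. The male KO chow libraries, with 2, 5, 7 and 10 counts, also stand behind the genotype call of Asns in male chow. They enter its sex difference in KO mice on chow too, so these calls are not independent of each other. Asns rose by 1.81 ± 0.37 in KO males (edgeR adjusted p = 0.00851) and fell by 1.09 ± 0.32 in KO females (0.0197). The first call was kept in 7 of 7 omissions. The second was lost without chow replicate 3 or high fat replicate 2 or 3 (-1.24 to -0.79 over the omissions, edgeR adjusted p up to 0.103), and without the libraries highest in Krt10, which removes chow replicates 1 and 3 (-0.81, 0.173). In WT muscle the groups overlapped in both sexes, with 2.31, 1.89, 1.30 and 1.33 CPM on high fat against 0.925, 1.38, 1.93 and 0.960 CPM on chow in males, and a log2 fold change of -0.33 ± 0.29 in females.

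**Figure D3:**
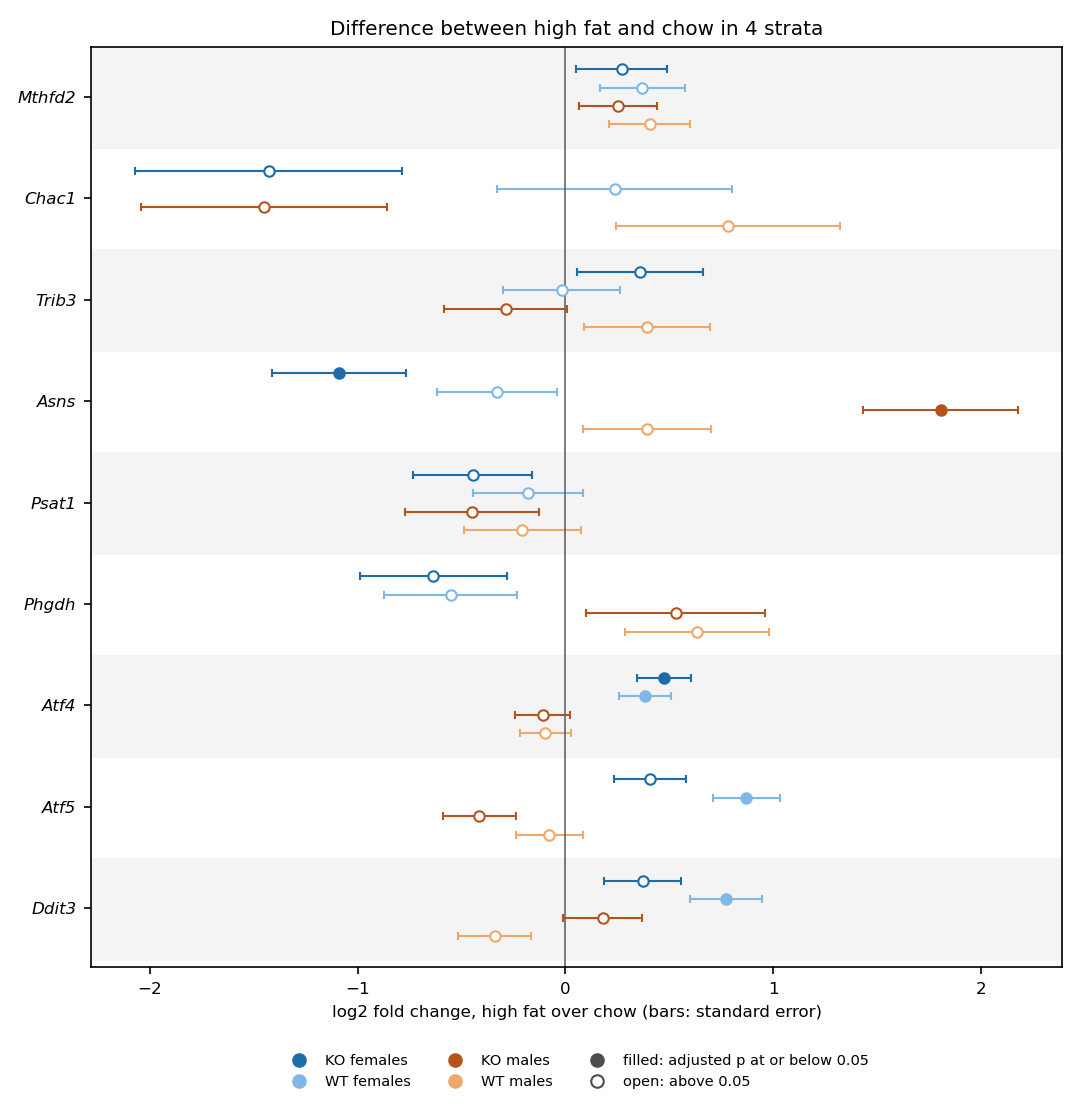
Log2 fold change of each gene, high fat over chow (x axis), with its standard error as a bar, in KO females, WT females, KO males and WT males from top to bottom within a gene. Filled points passed an adjusted p of 0.05 in edgeR. Atf5 (0.87) and Ddit3 (0.77) are filled in WT females, Atf4 is filled in both female strata, and Asns is filled at 1.81 in KO males and at -1.09 in KO females.

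The change with diet was tested between the sexes, averaged over genotype. The diet difference was larger in females than in males for Atf4 by 0.53 ± 0.13 (edgeR adjusted p = 0.00133), for Ddit3 by 0.65 ± 0.18 (0.00431) and for Atf5 by 0.88 ± 0.17 (0.000157). It was smaller in females for Asns by -1.81 ± 0.33 (edgeR adjusted p = 7.55e-05) and for Phgdh by -1.18 ± 0.36 (0.0101). These are 5 of 9 members, 3 in the positive and 2 in the negative direction, in a comparison where 45.2% of all genes were called, 21.6% positive and 23.6% negative, so the share among the members is near the background. Phgdh had 3.15, 3.77 and 3.97 CPM in female KO high fat, against 4.34, 6.08, 8.10 and 4.05 CPM in female KO chow, and in males its difference was positive, 0.53 ± 0.43 in KO and 0.63 ± 0.35 in WT muscle. Averaged over sex and genotype, diet moved none of the 9 past the threshold in edgeR (5 at an unadjusted p under 0.05, 0.827% of all genes called, 0 members by DESeq2).

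Lists of related genes were read for diet in females as well. Of all genes, 19.2% were called there in KO muscle (10.4% higher) and 25.4% in WT muscle (12.9% higher). These shares stand beside every list count of the diet comparison in females given next. Among the 20 synthetases, 6 were higher and 0 lower on high fat in KO females, including Aars (0.37) and Vars (0.49), and 5 were higher and 2 lower in WT females, with Vars at 0.57 and Dars at -0.40. Of 12 genes for eIF2 kinases, phosphatase subunits and eIF2B, 3 were higher and 0 lower in KO females, and 2 were higher and 3 lower in WT females. Ppp1r15a, the stress-induced subunit that directs dephosphorylation of eIF2, was higher by 0.67 ± 0.15 in KO females (edgeR adjusted p = 0.00423) and by 0.53 ± 0.14 in WT females (0.00654). The lower genes in WT females were the kinase genes Eif2ak3 (-0.51) and Eif2ak2 (-0.56) and Ppp1r15b (-0.31), the constitutive counterpart of Ppp1r15a.

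Of 11 serine, glycine and one-carbon enzymes, 1 was higher and 0 lower in KO females, and 2 were higher and 1 lower in WT females. Shmt2, the mitochondrial serine hydroxymethyltransferase that supplies Mthfd2, was higher by 0.38 ± 0.11 in KO females (edgeR adjusted p = 0.0216) and by 0.52 ± 0.10 in WT females (0.0013). In WT females Amt was also higher (0.51), and Aldh1l2, a mitochondrial enzyme that oxidises formyl folate, was lower (-0.63). Of 17 other ATF4-responsive genes, 1 was higher and 2 lower in KO females, and 2 were higher and 1 lower in WT females. Atf3, another bZIP stress factor, was higher in KO females by 1.07 ± 0.34 (edgeR adjusted p = 0.0299), and the zinc transporter gene Slc30a1 (-0.89) and the pseudokinase gene Trib1 (-0.70) were lower. Of 12 amino acid transporters, 2 were higher and 1 lower in KO females, and 1 was higher and 0 lower in WT females. Slc38a2 (0.70) was higher and the glutamine carrier Slc1a5 (-1.03) lower in KO females.

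Markers of other cells moved with the same contrasts. In KO females, 6 of 12 muscle fibre markers were higher and 1 lower on high fat, while 3 of 6 tendon, 2 of 7 adipocyte, 2 of 10 macrophage, 2 of 8 endothelial and 2 of 6 keratinocyte markers were lower. Summed, the muscle fibre markers lay between 192868 and 212383 CPM on high fat and between 145451 and 150639 CPM on chow there, and the tendon markers between 173 and 237 CPM on high fat and between 329 and 472 CPM on chow. In WT females, 6 of 10 macrophage, 3 of 10 fibroblast and 3 of 6 Schwann cell markers were lower on high fat. So were 3 of 6 tendon and 2 of 7 adipocyte markers. There 2 of 12 muscle fibre markers were higher and 2 lower, and 2 of 8 endothelial markers were higher. In KO males, 4 macrophage and 3 fibroblast markers were higher on high fat and 2 of 12 muscle fibre markers were lower. The change with diet, high fat over chow, was lower in females than in males for 8 of 10 macrophage and 7 of 10 fibroblast markers. It was also lower for 5 of 7 adipocyte and 5 of 6 tendon markers. Of the 12 muscle fibre markers, the change was higher in females for 7 and lower for 2. Of all genes, 21.6% were called higher and 23.6% lower in that comparison. Their part in the values of the members was not tested.

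Sex was compared last. Averaged over genotype and diet, 6 of 9 members differed between female and male muscle, where 30.8% of all genes were called, and the members split evenly, with 3 lower (13.4% of all genes) and 3 higher (17.4%) in females. The lower ones were Mthfd2, Chac1 and Atf4, and the higher ones were the amino acid enzymes Asns, Psat1 and Phgdh. Mthfd2 ran from 3.11 to 6.73 CPM in 15 female libraries with a median of 4.12, against 4.34 to 18.6 CPM with a median of 8.42 in 15 male libraries. Chac1 had a median of 24.3 CPM in females (7.33 to 44.4) and of 55.2 CPM in males (10.5 to 229). The ranges of both genes overlapped between the sexes. Relative to males, Mthfd2 was lower by a log2 of -0.997 ± 0.10 (edgeR adjusted p = 3.98e-09), Chac1 by -1.54 ± 0.29 (0.000326) and Atf4 by -0.25 ± 0.06 (0.00269). Atf4 was not lower in females on high fat alone, in comparisons added after the data had been seen. Its log2 fold change there was 0.020 in KO muscle (edgeR adjusted p = 0.948) and 0.0036 in WT muscle (0.990).

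Phgdh (ENSMUSG00000053398, chromosome 3, 98313170 to 98339990, minus strand) had a median of 4.31 CPM in females (1.89 to 8.10) and of 2.48 CPM in males (0.510 to 5.89). Psat1 (ENSMUSG00000024640, chromosome 19, 15904678 to 15947337, minus strand), which makes the next step of serine synthesis, had a median of 2.91 CPM in females (1.99 to 5.29) and of 1.86 CPM in males (1.22 to 3.31). Phgdh was higher in females by 0.93 ± 0.18 (edgeR adjusted p = 0.000257), Psat1 by 0.58 ± 0.14 (0.00258) and Asns by 0.62 ± 0.16 (0.00431). The calls of all 6 genes were kept whichever library was left out. On high fat alone, in comparisons added after the data had been seen, Asns was not higher in females. Its log2 fold change there was -0.56 in KO and -0.01 in WT muscle, and neither was called. All KO females on high fat (1.23 to 1.38 CPM) lay below all KO males (1.47 to 2.23 CPM). Phgdh on high fat was at 0.73 in KO and -0.06 in WT muscle, also without a call. The mouse genome holds 20 other genes with a transcript of 90.4% to 98.7% identity to that of Phgdh over at least 150 bases, and 1 such gene for Psat1 at 91.0%, so reads of these members may have been lost or shared. The 6 copies of Phgdh with a row in the tables had 8 counts together, against 1399 for Phgdh itself.

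Within single strata, in comparisons added after the data had been seen, 7 of 9 members were called in KO mice on chow, where 42.6% of all genes were. Mthfd2 was lower in KO females on chow by -1.57 ± 0.19 (edgeR adjusted p = 3.65e-07), with 4.42, 3.68, 5.07 and 3.58 CPM in females against 10.4, 13.7, 9.54 and 16.0 CPM in males. Asns was higher there by 2.33 ± 0.34 (edgeR adjusted p = 4.97e-06) and Phgdh by 1.90 ± 0.37 (0.00018). Atf4 was lower by -0.57 ± 0.12 (edgeR adjusted p = 0.000576), a call kept in 8 of 8 omissions. Chac1 was lower by -2.02 ± 0.55 (edgeR adjusted p = 0.0055), Psat1 was higher by 0.77 ± 0.27 (0.0237) and Atf5 was lower by -0.50 ± 0.16 (0.0136). Without the libraries highest in Krt10, which are KO females on chow 1 and 3 and WT female chow 3, the adjusted p of Chac1 was 0.0576, of Psat1 0.548 (log2 0.27) and of Atf5 0.124. The call of Psat1 was also lost, narrowly, in a fit of only these groups. It was lost as well without male KO chow replicate 2 or 3 or female KO chow replicate 1 or 3 (log2 0.55 to 1.02 over the 8 omissions, adjusted p up to 0.133). In KO mice on high fat only Mthfd2 was called, lower in females by -1.55 ± 0.22 (edgeR adjusted p = 9.93e-06), where 13.4% of genes were called.

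In WT mice on chow, 2 of 9 members were called, where 12.0% of genes were. Atf4 was lower in females by -0.48 ± 0.12 (edgeR adjusted p = 0.011), with 154, 135, 119 and 124 CPM in females against 166, 186, 159 and 229 CPM in males, and Phgdh was higher by 1.13 ± 0.33 (0.0254). Neither held without the libraries highest in Krt10 (0.0623 and 0.109), and the Atf4 call was also lost without male WT chow replicate 4 or female WT chow replicate 3 (-0.57 to -0.36, up to 0.0834). The Phgdh call was lost without male WT chow replicate 1 or 4 or female WT chow replicate 3 (0.89 to 1.31, up to 0.112). By own titles neither was called (edgeR adjusted p = 0.172 for Atf4 and 0.183 for Phgdh). In WT mice on high fat, Ddit3 was higher in females by 0.71 ± 0.17 (edgeR adjusted p = 0.00681) and Atf5 by 0.67 ± 0.16 (0.00651), 2 of 9 members where 12.5% of genes were called, and with an offset for GC content Atf5 was at 0.40 (0.0608). By own titles both of these were lost, at 0.54 (edgeR adjusted p = 0.117) for Ddit3 and 0.48 (0.166) for Atf5. Mthfd2 did not overlap between the sexes in any of the 4 strata, with all females lower, and in WT muscle its difference of -0.42 ± 0.20 on chow and -0.45 ± 0.20 on high fat did not pass the test.

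**Figure D4:**
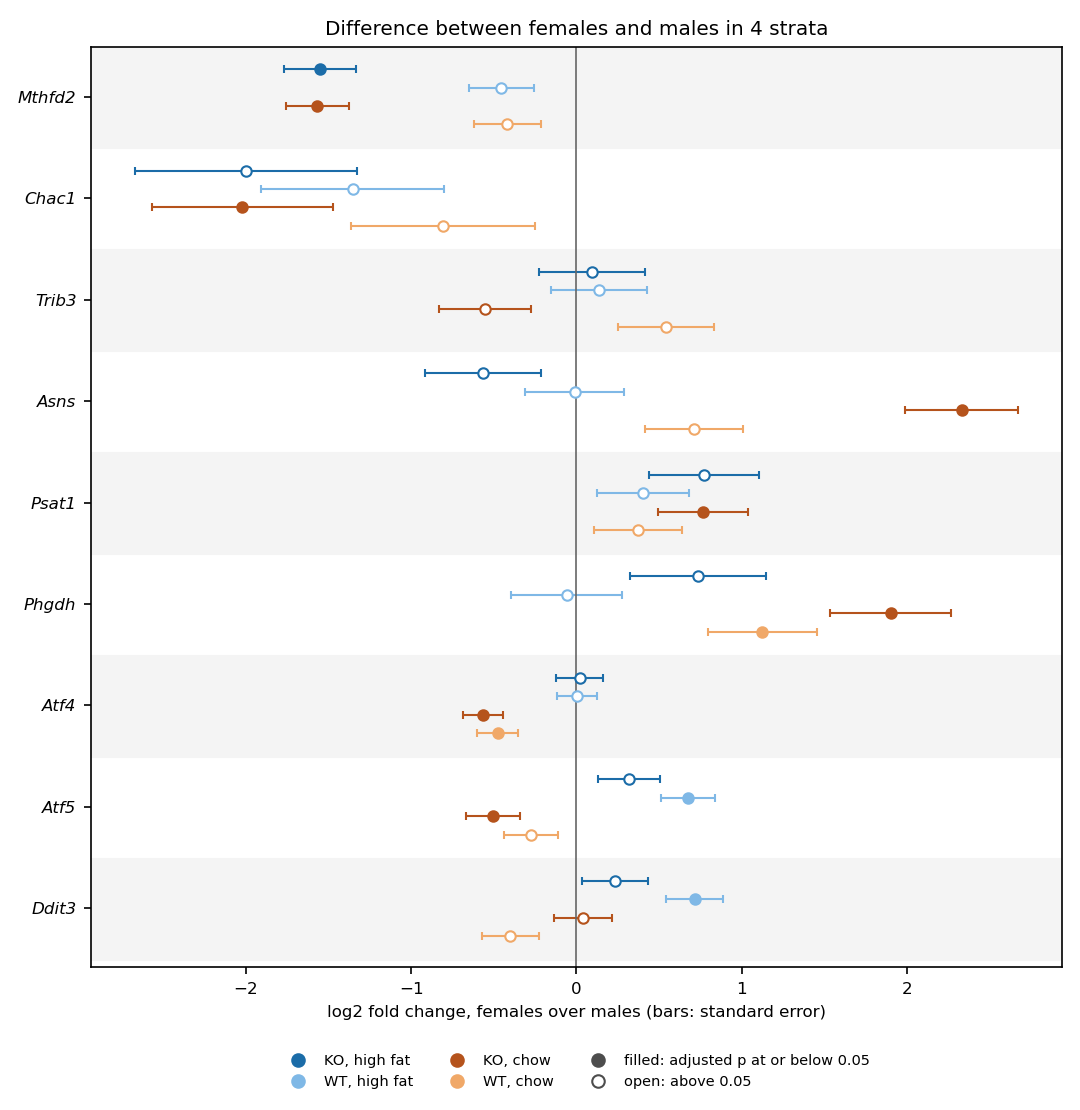
Log2 fold change of each gene, females over males (x axis), with its standard error as a bar, in KO high fat, WT high fat, KO chow and WT chow from top to bottom within a gene. Filled points passed an adjusted p of 0.05 in edgeR. Mthfd2 lies left of 0 in all 4 strata and is filled in both KO strata, Asns reaches 2.33 in KO chow, and Ddit3 and Atf5 are filled on the right in WT high fat.

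Of the lists, averaged over genotype and diet, 6 of 20 synthetases were lower and 0 higher in females, led by Nars (-0.26) and Cars (-0.25). Of all genes, 13.4% were lower and 17.4% higher in that comparison. Of 12 amino acid transporters, 4 were higher and 3 lower in females. Slc38a2 and Slc38a4 were lower by -0.80 ± 0.08 (edgeR adjusted p = 2.21e-09) and -0.84 ± 0.10 (3.38e-07), as was Slc7a5 (-0.49), while Slc38a1 (0.87), Slc1a5 (0.54), Slc1a4 (0.53) and Slc3a2 (0.20) were higher. Of 17 other ATF4-responsive genes, 6 were higher, led by Stc2 (1.43) and Cdkn1a (0.88), and 6 lower, led by Vldlr (-1.07) and Eif4ebp1 (-0.56). Of the 12 eIF2 genes, 1 was higher and 1 lower. Among 11 one-carbon enzymes, Aldh1l1 (0.70) and Shmt1 (0.53), both cytosolic, were higher and Mthfd2l, the paralog of Mthfd2, was lower (-0.31). Markers of several non-muscle cell types were higher in females, with 10 of 10 for fibroblasts, 9 of 10 for macrophages and 6 of 6 for Schwann cells. The count was 5 of 6 for tendon and 4 of 7 for adipocytes, but 1 of 8 for endothelial cells and 0 of 6 for keratinocytes. In KO mice on chow, 10 of 10 fibroblast, 10 of 10 macrophage and 6 of 7 adipocyte markers were higher in females. So were 6 of 8 endothelial and 4 of 6 keratinocyte markers, while 6 of 12 muscle fibre markers were lower and 1 was higher. Of all genes, 42.6% were called there. In WT mice on chow and in KO mice on high fat, 4 of 10 fibroblast markers were higher. In WT mice on high fat alone, 0 of 10 fibroblast and 0 of 10 macrophage markers were called between the sexes. Adipocyte markers summed to 165.7 to 586 CPM over the female groups and to 89.999 to 253 CPM over the male groups. Plin1, which coats the lipid droplets of adipocytes, was the second closest of all genes to Phgdh in pattern over the 30 libraries (Pearson r = 0.92), after Tuba1b (0.92). The part of these cells in the sex difference of Phgdh, Psat1 and Asns was not tested.

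Patterns over libraries describe how the members relate. Each point is 1 library, and differences between the groups enter these correlations unless the group means are removed. Over 30 libraries the genes closest to Mthfd2 were Mad2l2 (Pearson r = 0.90), Ubxn10 (0.85) and Gdf11 (0.84). Mad2l2 and Ubxn10 lie on chromosome 4, as Trim63 does, and Mthfd2 lies on chromosome 6. Chac1 was closest to Sgk1 (0.79), Arrdc2 (0.76) and Rnf144b (0.75). Atf4 was closest to Ubxn1, Saraf and Nudt9 (0.93 to 0.94) and Trib3 had no gene above 0.68. Among the 9 members themselves, after removing the group means, the highest of 36 pairs were Ddit3 with Atf5 (0.78) and Psat1 with Phgdh (0.73), and the lowest was Atf4 with Psat1 (-0.59). Mthfd2 and Chac1, both high in male KO chow, had 0.18 within groups.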

How the data were processed

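RNA of 31 gastrocnemius libraries (polyA, stranded kit, 150 bp paired ends, RIN above 8, per the labels' protocols) was sequenced. The authors deposited raw read counts per gene and library. The submitters' processing notes name bcl2fastq, featureCounts and mm10. The sources used here do not name the aligner, annotation release or strand setting. In 19 records the animal numbers of title and description differ. Each library was grouped by the animal number of its counts, through the title with that number. For 4 libraries this differs from their own title, and 1 library, whose animal is in no title, stayed ungrouped. No 2 libraries of a group agreed within sampling noise (42 pairs, chi-square per gene of at least 4.67, 0 identical).

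From the deposited counts, differences were tested with edgeR 4.0.16 (R 4.3.3; quasi-likelihood F test, robust, TMM, filterByExpr with a minimum count of 10, 1 coefficient per group in 1 fit of 30 libraries). Adjustment was by Benjamini and Hochberg over 14024 genes in each comparison, at 0.05. The standard error is the log2 fold change over the root of F. The common dispersion corresponds to a variation of 14.2% between animals. Alternatives were DESeq2 1.42.0, RLE size factors, no count filter, a fit of only the groups compared, the replicate block, a GC offset, other groupings by title, and leaving out single libraries, those highest in Krt10 or those of intermediate Trim63. Symbols and mm10 coordinates came from GENCODE M21 (37607 identifiers), promoters from RefSeq, and near copies from blastn 2.17.0 at 90% identity. Named genes are the 9 members, the label checks, called genes of the lists by p, and the 3 closest genes by Pearson correlation of log2(CPM + 0.5). The members, lists, comparisons and alternatives were chosen with earlier results of these data known. Simulated counts with 100 genes changed at each fold gave 41% of 1.5-fold and 86% of 2-fold genes called for genotype in male chow, among 13801 genes. The changed genes were drawn from those with a mean count of at least 10, and 8 unchanged genes were called. These percentages need not hold for a member with few counts or a wide spread, such as Asns or Chac1. No counting interval is given, and the reads were not counted by molecule.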

Additional observations from a re-analysis of the deposited data

Results flagged for a closer look

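In 54 groups of 4 libraries, 3 values lay far from the other 3 of their group. This share is near the 1 in 20 groups that chance gives, so the values need not be true outliers. They were Chac1 at 11.8 CPM in female WT chow replicate 2, Chac1 at 44.4 CPM in female WT high fat replicate 4 and Mthfd2 at 3.87 CPM in the same library. That library also has Trim63 between 50 and 150 CPM.

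Differences between groups in the size of an effect were found for 6 combinations of a gene and a comparison. The genotype difference of Mthfd2 differed between females and males by -1.12 (log2; edgeR adjusted p = 0.0191). The diet difference differed between females and males by 0.53 for Atf4, -1.81 for Asns, -1.18 for Phgdh, 0.65 for Ddit3 and 0.88 for Atf5, with edgeR adjusted p from 7.55e-05 to 0.0101.

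The ungrouped library had Mthfd2 at 10.5 CPM, above the highest WT chow library of either sex at 5.93 CPM, while its Trim63 was 111 CPM. Its Chac1 was 18.2 CPM and its Asns 0.888 CPM.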

How the results depend on the processing

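Of 24 calls of a member in the 14 comparisons other than those added later, 17 were kept under every alternative run except grouping by the libraries' own titles. The 7 others are Chac1, Asns and Trib3 for genotype in male chow, Atf4 for diet in WT and KO females, Asns for diet in KO females, and Mthfd2 for genotype between sexes. No direction of a called value reversed. The count of members called for genotype in male chow, 4, was 1 without the count filter, 1 in a fit of only its groups, 1 without libraries of Trim63 between 50 and 150 CPM, 2 without the 3 libraries highest in Krt10 and 2 when all 31 libraries were grouped by their own titles. For diet in KO females, 2 became 4 in a fit of only its groups, 0 without the Krt10 libraries, 1 with the GC offset and 4 by own titles. For diet in KO males, 1 became 2 in a fit of only its groups. Grouping by own titles gave 0 in place of 1 for genotype in male high fat, for genotype on average and for genotype between sexes, and 0 in place of 3 for diet in WT females. With 1 library left out, the count ran from 1 to 4 for genotype in male chow, from 0 to 2 for diet in KO females, from 1 to 2 for diet in KO males, from 2 to 3 for diet in WT females, and from 0 to 1 for diet on average, for genotype between diets and for genotype between sexes. It did not move for the others. The cause of these moves was not tested. Without male KO high fat replicate 2, Chac1 for diet on average was -0.96 (edgeR adjusted p = 0.036) and was not called with it (-0.47, 0.393).

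The replicate block left every count of called members as it was, 4 for genotype in male chow and 6 for sex. Same-numbered libraries deviated together in 11 of 28 pairs (correlation over 0.1, range -0.32 to 0.45). Libraries with different numbers were not compared in this way, so this cannot decide whether the numbers pair the samples. Counts were lowest for Asns and Trib3, with medians of 19.5 and 17 per library.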
